A study of Mus musculus with 20 samples.

Results

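The Nanog-Dppa3-Gdf3 cluster on mouse chromosome 6 was examined as 9 of the 54034 promoter windows measured in single blastocysts. They are the windows of the GRCm39 (mm39) build whose start lies between 122.54 and 122.72 Mb. A window is 3500 bases long and covers 3000 bases before a start site and the 500 bases from it on. The position rule used no methylation value.

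Each sample is the DNA of a whole blastocyst, the embryo just before implantation, bisulfite sequenced after its polyadenylated RNA had been taken off on beads. There were 10 control embryos (replicates 1 to 10) and 10 embryos labelled Padi6-mutant (replicates 11 to 20), which came from Padi6P620A oocytes. PADI6 is an oocyte protein that the egg passes on to the embryo, so the comparison asks whether promoter methylation in the blastocyst differs when the egg carried the mutation. The labels give no strain, sire, age, litter, sex or batch, and embryos of a group can share a mother, so the tests measure only the spread between these embryos.

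Of the genes of this cluster, Nanog, Dppa3 and Gdf3 are known for their part in pluripotency. Nanog encodes a homeobox transcription factor of the inner cell mass, the cells that form the embryo proper. Dppa3, also called Stella or PGC7, encodes a maternal and germline protein that shields the maternal genome from loss of methylation after fertilisation. Gdf3 encodes a TGF-beta family ligand of pluripotent cells, and Apobec1 a cytidine deaminase that edits RNA. Promoters of active genes are as a rule poor in DNA methylation. A blastocyst also holds trophectoderm, the outer layer that gives rise to placenta, and a level here is a mean over all its cells. Bisulfite sequencing does not tell 5-methylcytosine from 5-hydroxymethylcytosine.

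The windows carry positions and no gene names, so genes were tied to them by spacing, as a distance from the Nanog start site compared with RefSeq's gene table of build GRCm38.p6. No coordinate was moved between builds. The spacing of the Apobec1 and Gdf3 start sites to that of Nanog was equal to the base, at 105045 and 97402 bases, and that of Dppa3 (81079 bases) differed by 14 bases. A further 3 windows lay 23, 40 and 71 bases from an annotated edge of the pseudogenes Gm10420, Gm10224 and Gm8459. Their strand is not given in that table, nor is that of Gdf3 and Dppa3, so either edge of all these genes was allowed. The pseudogene ties are weaker, since they are less close. The Nanog window was taken beforehand as the last window of the position rule, so its own match is by construction. The remaining 2 windows met no gene edge within 100 bases. Slc2a3, the gene of the glucose transporter GLUT3, belongs to this neighbourhood too, but no window met its start within 100 bases, and it is not analysed here.

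Promoter sequences were at hand for Nanog and Apobec1 (RefSeq, build GRCm38.p6, 250 bases before the start site to 50 after it). They are shown for their CG dinucleotides, since methylation is read at CG, and CG is in capitals. Each stretch is far shorter than its window of 3500 bases, and which CG dinucleotides gave the levels is not known. The Nanog stretch is chr6:122707239-122707538 on the plus strand and the Apobec1 stretch chr6:122602395-122602694 on the minus strand.
Nanog: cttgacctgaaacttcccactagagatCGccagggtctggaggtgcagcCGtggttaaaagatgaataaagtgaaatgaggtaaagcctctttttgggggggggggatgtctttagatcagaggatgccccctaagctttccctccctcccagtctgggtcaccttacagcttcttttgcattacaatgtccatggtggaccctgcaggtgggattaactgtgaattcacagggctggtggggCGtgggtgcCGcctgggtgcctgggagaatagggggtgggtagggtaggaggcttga
Apobec1: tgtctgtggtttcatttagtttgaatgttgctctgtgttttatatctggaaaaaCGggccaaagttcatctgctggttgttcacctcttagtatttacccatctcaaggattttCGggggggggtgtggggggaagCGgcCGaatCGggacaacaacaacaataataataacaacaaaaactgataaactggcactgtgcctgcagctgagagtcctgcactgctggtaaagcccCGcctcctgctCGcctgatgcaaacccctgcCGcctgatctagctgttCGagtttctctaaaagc

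Nanog had 4 CG dinucleotides in these 300 bases and Apobec1 had 9, against a median of 7 over 32851 mouse promoters of that length. Fewer CG than in Nanog were found in 31.4% of promoters, and fewer than in Apobec1 in 54.2%. The Nanog stretch also holds the octamer part TTTGCAT, part of the site that OCT4 binds, followed after a single base by the SOX part ACAATG. These 30 bases show both in capitals.
Nanog site: cagcttctTTTGCATtACAATGtccatggt

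The octamer part begins 75 bases before the start site. RefSeq holds a second, overlapping Nanog entry with a start site further downstream, before which it begins 151 bases. Searched on both strands, it occurred in 4.63% of the 32851 promoters, the SOX part in 12.6%, and both together in 0.813%. The Apobec1 stretch holds the octamer part and no SOX part. The KLF part CACCC occurred at 3 places in Nanog and at 1 in Apobec1, and in 57.5% of promoters. Such matches describe letters and are no evidence of binding, and no CG lies inside the 30 bases shown.

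Coverage limited every value below. Read depth is unknown, and the number of windows with a value stands in for it. Densely covered embryos, set as those with at least 30000 windows, were 6 control (37049 to 46950 windows) and 3 mutant embryos (38549 to 43812). The other 4 control (4984 to 17002) and 7 mutant embryos (2875 to 13847) were sparsely covered. Of the 180 possible values in the cluster, 95 were present, 56 in control and 39 in mutant embryos. Densely covered embryos had a value in 7 to 9 of the 9 windows, sparsely covered controls in 1 to 3 and sparsely covered mutants in 0 to 4. Mutant replicate 17 had none.

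Most of what was measured in the cluster was unmethylated. Of the 95 values, 60 (63.2%) were exactly 0, against 46.0% of the values of 132 chromosome 6 windows within 2 Mb on either side and 48.6% over all windows. The highest value was 50%. Values of 50% or more made up 2.11% of the cluster values (2 of 95, both from mutant replicate 15), 13.1% of the neighbouring values and 12.4% of all values. In densely covered embryos alone, 56.2% of the cluster values were exactly 0, against 40.9% of the neighbouring ones. By group, these shares were 58.3% against 37.9% in densely covered controls and 52.0% against 46.4% in densely covered mutants. At the Nanog, Dppa3, Gdf3 and Apobec1 windows together, 15 of 22 values (68.2%) were exactly 0 in those controls. In those mutants it was 5 of 11 (45.5%). These 4 windows were chosen after seeing the data. Mutant replicate 14 was above 0 at each of them, while replicates 11 and 12 were above 0 at Nanog alone. Over all windows, replicate 14 had the lowest share of exact zeros of the densely covered embryos (32.1%). The shares given here are descriptions, since values of an embryo share a library. Exact zeros were 68.0% of all values in sparsely covered and 42.9% in densely covered embryos.

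**Figure D1:**
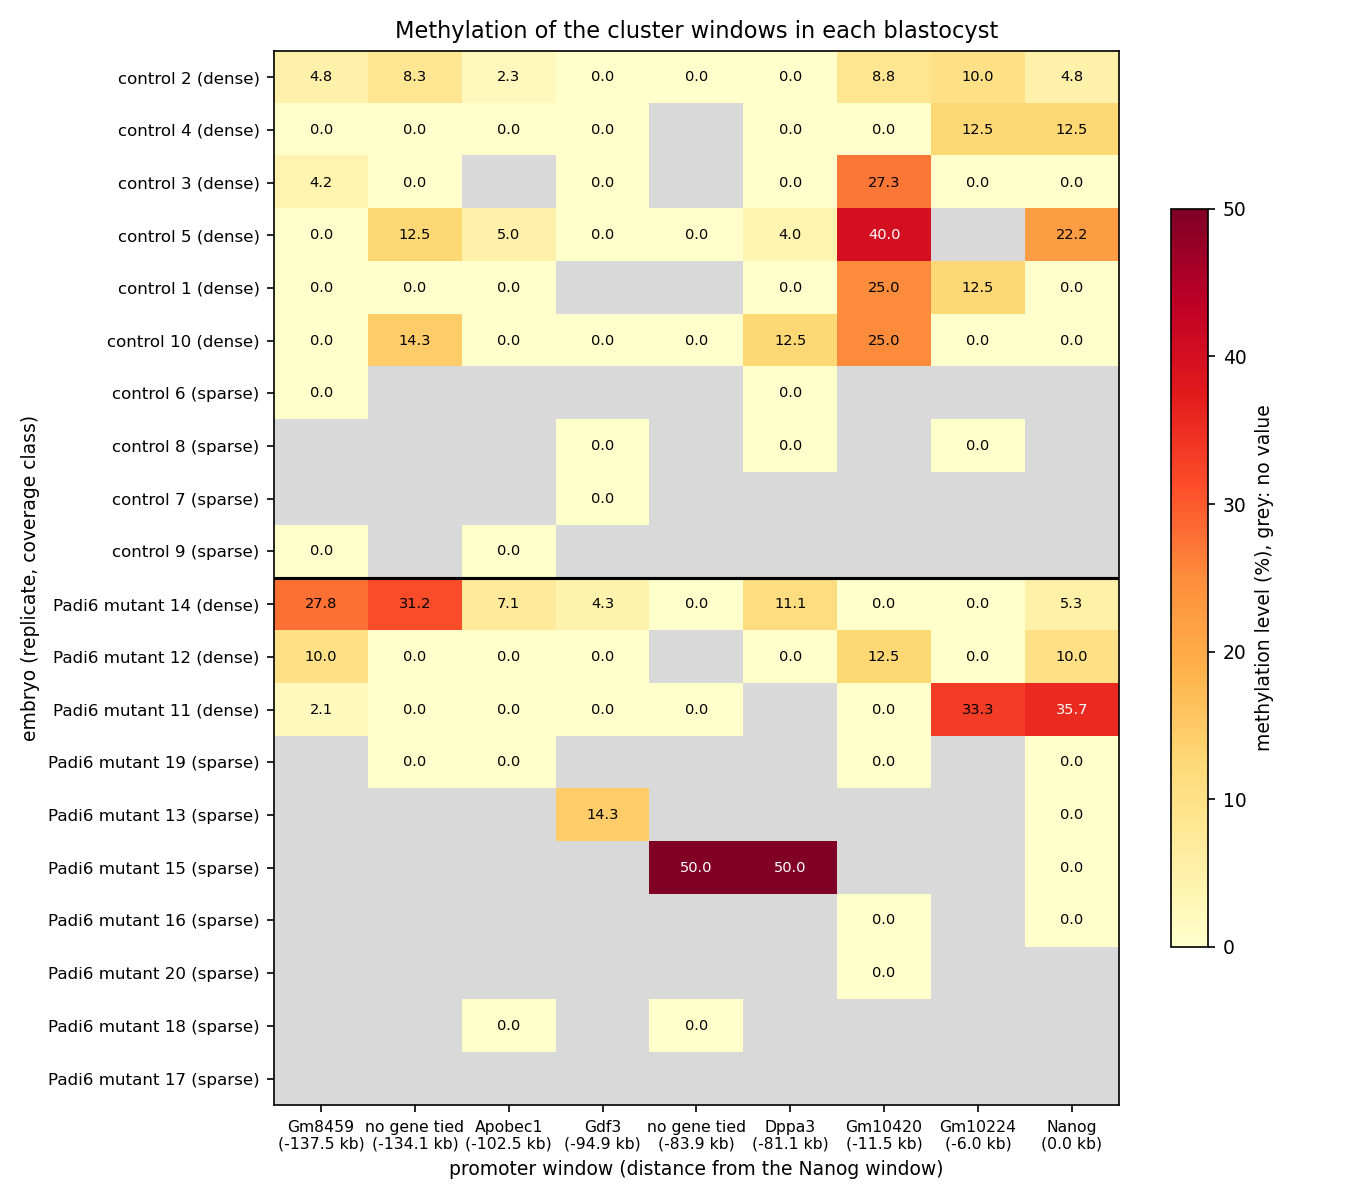
Methylation level in percent (colour and printed number) of the 9 cluster windows (columns, with the distance from the Nanog window in kb) in each of the 20 embryos (rows, control above the line, mutant below, ordered by coverage). Grey cells have no value. Most cells with a value are 0, and the highest, at 50%, belong to mutant replicate 15 in 2 windows that overlap.

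Taken per embryo, the mean over the cluster windows lay below the mean over the neighbouring windows in 18 of the 19 embryos with a value, in 10 of 10 controls and 8 of 9 mutants. Cluster means of densely covered controls ran from 3.13% to 10.5%, while the neighbouring windows of the same embryos ran from 13.6% to 18.97%. In the 3 densely covered mutants the cluster ran from 4.06% to 9.65% and the neighbouring windows from 6.67% to 17.5%. The exception was mutant replicate 15, with 33.3% from 3 windows, 2 of which overlap. All 4 sparsely covered controls stood at 0%, each from 1 to 3 windows. So did 4 of the 6 sparsely covered mutants with a value (replicates 16, 18, 19 and 20), from 1 to 4 windows. Of the 18 embryos below their neighbouring windows, 8 thus had a cluster mean of 0%.

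**Figure D2:**
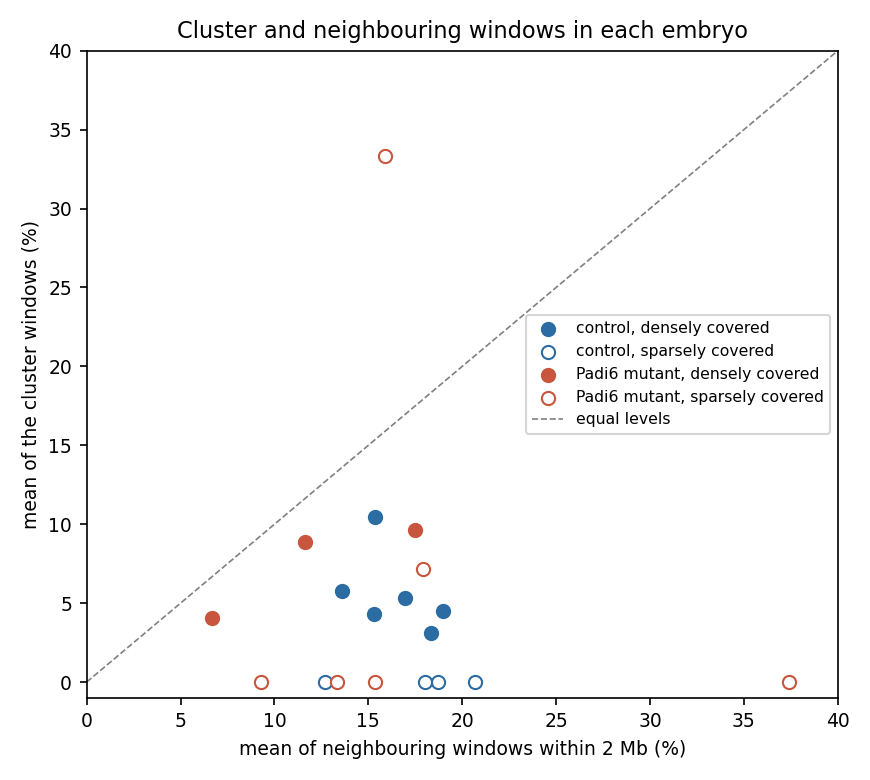
Mean level of the cluster windows (vertical axis, %) against the mean of chromosome 6 windows within 2 Mb (horizontal axis, %), with a point per embryo, filled where the embryo was densely covered. The dashed line marks equal levels, and 18 of 19 embryos lie below it.

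Between the groups, control embryos had a cluster mean of 3.35% ± 3.46 (SD, n = 10) and mutant embryos one of 7.01% ± 10.7 (SD, n = 9). The difference of 3.66 percentage points was smaller than the spread between mutant embryos. Control embryos ran from 0% to 10.5% with a median of 3.73%, and mutant embryos from 0% to 33.3% with a median of 4.06%, so the groups overlapped. Without mutant replicate 15 the difference was 0.368 points. Over densely covered embryos alone it was 1.95 points (5.59% ± 2.56, SD, n = 6, against 7.54% ± 3.03, SD, n = 3). Over the 3 windows with at least 5 values in each group the direction turned, to -6.26 points. The difference was 6.75 points over sparsely covered embryos alone and 8.09 without values of exactly 0 and 100, and 2.20 and 2.16 points with overlapping windows merged and with values centred on window means. A mean over chosen windows is given here without a test.

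None of the 9 windows passed the test. In limma, fitted over 37645 windows (a minimum of 3 control and 3 mutant values) and with Benjamini-Hochberg adjustment, 0 of 9 cluster windows had an adjusted p under 0.05, and 14 of all windows did (0.0372%). The smallest adjusted p in the cluster was 0.605. At an unadjusted p under 0.05 there were 2 cluster windows, 1 higher and 1 lower in mutant embryos, beside 5.75% of all windows (1.85% higher and 3.9% lower). Limma with trend and robust fitting gave 4 cluster windows, beside 4.53% of all windows. An exact permutation test over embryos gave 2, and its share over all windows was not computed. In 8 of the 9 windows the mutant mean was the higher one, with a median difference of 4.66 points. Over all windows the median difference was -1.07 points and 43.5% were higher in mutants. Over the neighbouring windows it was -1.25 points and 42.1% were higher. In densely covered embryos alone 7 windows were higher, 1 was lower and 1 was equal, with a median difference of 2.81 points. There 0 of 9 passed, beside 0.0417% of the 43194 windows with at least 2 values per group.

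**Figure D3:**
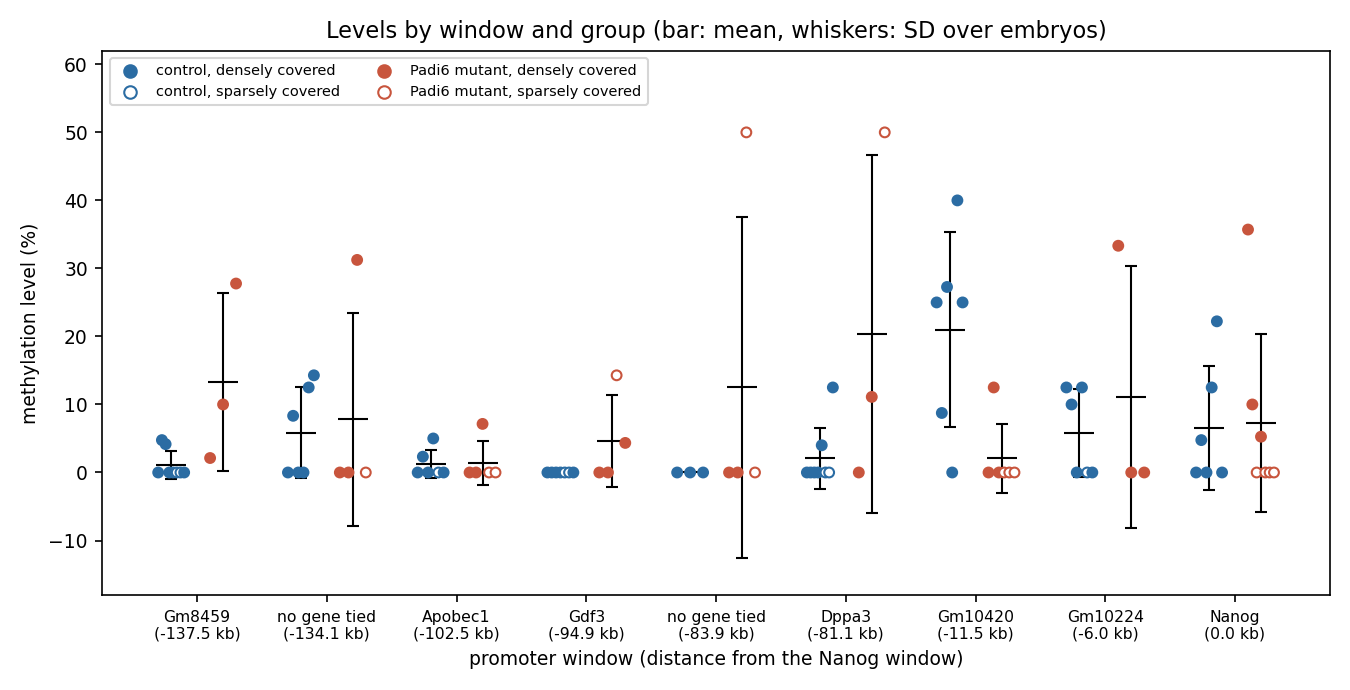
Methylation level (%) of every embryo at each cluster window, control in blue and mutant in red, filled for densely covered and open for sparsely covered embryos. Bars are means and whiskers SD. Groups overlap at all 9 windows, and at the Gm10420 window 5 of 6 control values but 1 of 6 mutant values lie above 0.

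The Nanog window (122681448 to 122684947) was low in most embryos of either group. The 6 control values, all from densely covered embryos, ran from 0% to 22.2% with a median of 2.38%, and 3 were exactly 0. The 7 mutant values ran from 0% to 35.7% with a median of 0%. The 4 mutant embryos at 0% were the sparsely covered ones, while the densely covered ones stood at 35.7%, 10.0% and 5.26% (replicates 11, 12 and 14). The means were 6.58% ± 9.09 (SD, n = 6) and 7.28% ± 13.1 (SD, n = 7). The difference was 0.702 points (SE 6.21, 95% interval -12.8 to 14.2, limma adjusted p = 0.982, embryos without a value dropped). Among densely covered embryos it was 10.4 points (95% interval -7.59 to 28.4, limma adjusted p = 0.851), from 6.58% against 16.99% ± 16.4 (SD, n = 3). The sign turned without mutant replicate 11 (-4.04 points) and without control replicate 1, 3 or 10 (-0.614 points each), so the data give no direction for Nanog.

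The Dppa3 window (122600369 to 122603868) had 8 control values from 0% to 12.5% with a median of 0%, 6 of them exactly 0. Its mutant values were 0%, 11.1% and 50% in replicates 12, 14 and 15. The 50% is the sole mutant value above the control range. The means of 2.06% ± 4.44 (SD, n = 8) and 20.4% ± 26.3 (SD, n = 3) differed by 18.3 points (SE 8.44, 95% interval -0.432 to 37.0, limma adjusted p = 0.834; exact permutation p = 0.206, two-sided and unadjusted). Without replicate 15, 2 mutant values remained, too few for the main fit. The fit of densely covered embryos alone took a minimum of 2 values per group and rests on the same replicates 12 and 14. There the difference was 2.81 points (2.75%, n = 6, against 5.56%, n = 2, 95% interval -8.25 to 13.9, limma adjusted p = 0.886).

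A window from 122597506 to 122601005 shares 637 bases with the Dppa3 window and is no independent reading. Its 3 control values were all 0%, and its mutant values were 0% in replicates 11, 14 and 18 and 50% in replicate 15. The difference of 12.5 points (95% interval -20.1 to 45.1, limma adjusted p = 0.841) was 0 without replicate 15. Both 50% values around Dppa3 came from a single sparsely covered embryo, whose Nanog window stood at 0%.

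The Gdf3 window (122586547 to 122590046) was the most uniformly unmethylated of the 4 named promoters in controls. All 7 control values were exactly 0%. The mutant values were 0%, 0%, 14.3% and 4.35% in replicates 11, 12, 13 and 14. The difference of 4.66 points (4.66% ± 6.74, SD, n = 4; SE 2.92, 95% interval -1.82 to 11.1, limma adjusted p = 0.834) was 1.45 points without replicate 13, which is sparsely covered, and also 1.45 points among densely covered embryos. Limits on a level of 0% need read counts, which these percents do not give.

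The Apobec1 window (122578904 to 122582403) was near 0 in both groups. The 6 control values ran from 0% to 5.00% with a median of 0%, and the mutant values were 0% in replicates 11, 12, 18 and 19 and 7.14% in replicate 14. The means were 1.22% ± 2.07 (SD, n = 6) and 1.43% ± 3.19 (SD, n = 5), and the difference of 0.208 points had the narrowest interval of the 9 windows (95% interval -4.92 to 5.33, limma adjusted p = 0.987). Its sign turned without mutant replicate 14 (-1.22 points) and without control replicate 1, 4, 9 or 10 (-0.0365 points each).

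The window at the edge of the pseudogene Gm10420 (122669960 to 122673459), 11.5 kb from the Nanog window on the side of lower coordinates, was the most methylated cluster window in controls and the one that was lower in mutants. Its 6 control values, all from densely covered embryos, ran from 0% to 40.0% with a median of 25.0%, and 5 of 6 lay above 0. Of its 6 mutant values, 5 were exactly 0% (replicates 11, 14, 16, 19 and 20) and replicate 12 stood at 12.5%. The groups overlapped, since control replicate 4 was at 0%. The means were 21.0% ± 14.3 (SD, n = 6) and 2.08% ± 5.10 (SD, n = 6), a difference of -18.9 points (SE 6.05, 95% interval -32.2 to -5.65), with 6 of 6 mutant embryos below the control mean. Its unadjusted p was 0.00931 in limma and 0.0281 in the exact permutation test (two-sided), and it failed the correction (limma adjusted p = 0.605). Among densely covered embryos it was -16.8 points (95% interval -36.4 to 2.70, limma adjusted p = 0.849), from 21.0% against 4.17% in 3 mutants. A further 3 of the 6 mutant values came from sparsely covered embryos, all at 0%, and the part of coverage in the difference was not tested.

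The window at the edge of the pseudogene Gm8459 (122543934 to 122547433) went the other way. Its 8 control values ran from 0% to 4.76% with a median of 0%, 6 of them exactly 0, and its mutant values were 2.13%, 10.0% and 27.8% in replicates 11, 12 and 14. The means of 1.12% ± 2.07 (SD, n = 8) and 13.3% ± 13.1 (SD, n = 3) differed by 12.2 points (SE 4.54, 95% interval 2.12 to 22.3). The interval takes the spread as equal in both groups, though the mutant SD was the larger one. All 3 mutant embryos lay above the control mean and replicate 11 lay within the control range. The unadjusted p was 0.0223 in limma and 0.0364 in the exact permutation test, and the adjusted p was 0.740 in limma. All 3 mutant embryos were densely covered, and among densely covered embryos alone the difference was 11.8 points (95% interval 0.140 to 23.5, limma adjusted p = 0.764).

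The adjoining window from 122547353 to 122550852 shares 81 bases with it. Its 6 control values ran from 0% to 14.3% with a median of 4.17%, and its mutant values were 0% in replicates 11, 12 and 19 and 31.3% in replicate 14. The difference of 1.96 points (limma adjusted p = 0.946) became -5.85 points without replicate 14. The window at the edge of the pseudogene Gm10224 (122675488 to 122678987) had control values from 0% to 12.5% with a median of 5.00% (n = 6) and mutant values of 33.3%, 0% and 0% in replicates 11, 12 and 14, a difference of 5.28 points (95% interval -12.8 to 23.4, limma adjusted p = 0.868).

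**Figure D4:**
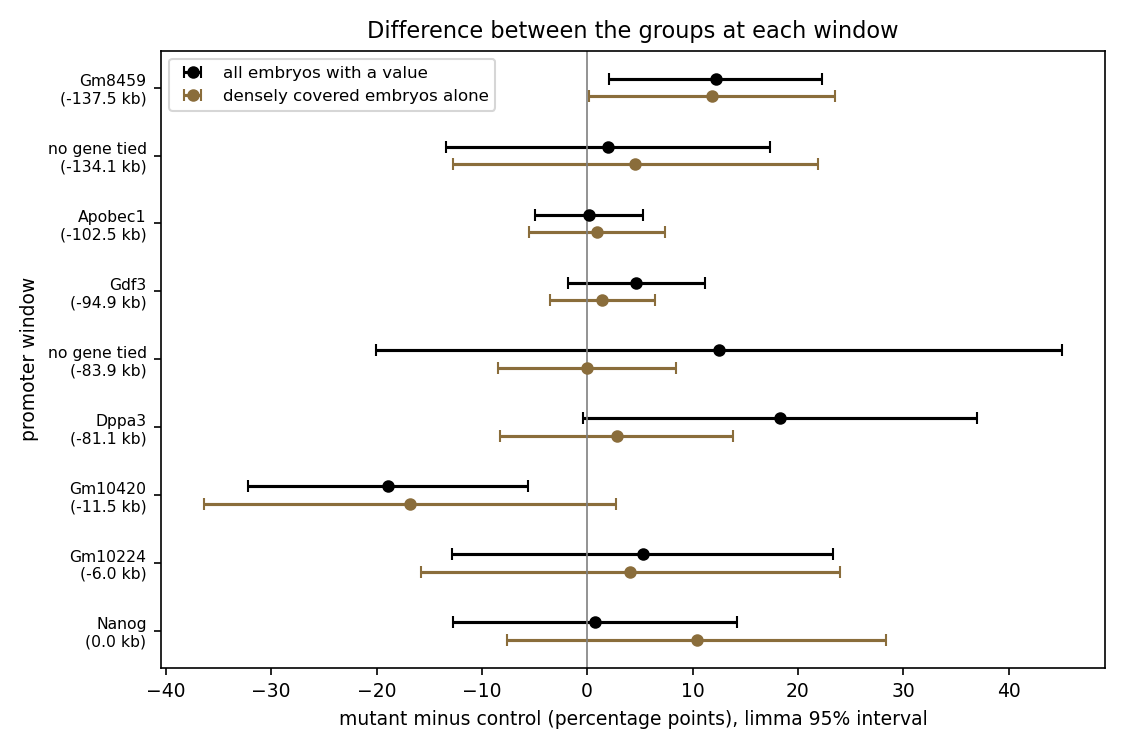
Difference between the group means (mutant minus control, percentage points) with limma 95% intervals at each cluster window, over all embryos with a value (black) and over densely covered embryos alone (brown). The intervals over all embryos leave out 0 at the Gm8459 window (2.12 to 22.3) and the Gm10420 window (-32.2 to -5.65), before any correction for the number of windows. Each interval takes the spread as equal in both groups.

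The mutant values above 0 came from replicates 11 to 15, at windows across the cluster, while replicates 16, 18, 19 and 20 had none. Replicate 14 led at the Gm8459 window, its neighbour and Apobec1, and had 6 of its 9 values above 0. Over all windows, replicate 14 also had the highest mean (17.6%) and the lowest share of exact zeros (32.1%) of the densely covered embryos. The means of replicates 11 and 12 over all windows were 11.1% and 7.16%. Whether the leads of replicate 14 are particular to the cluster was not tested. Replicate 11 led at Nanog and Gm10224, and had 3 of its 8 values above 0. Replicate 15 led at Dppa3, and replicate 13 at Gdf3. At no window were all mutant values above all control values.

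In controls the order of the mean levels ran from Gdf3 and the window overlapping Dppa3 (0%), Gm8459 (1.12%), Apobec1 (1.22%), Dppa3 (2.06%), Gm10224 (5.83%), the window from 122547353 (5.85%) and Nanog (6.58%) to Gm10420 (21.0%). From Gm8459 to Nanog, neighbours in this order lay within their SD of each other, and the range at Gm10420 overlaps that at Nanog. At Gdf3 and the window overlapping Dppa3 all control values were 0%, so their SD was 0. Of 113 neighbouring windows with at least 3 control values, 4 were at 0% like Gdf3, while 9 had a lower control mean than Apobec1, 12 than Dppa3, 31 than Nanog and 78 than Gm10420.

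**Figure D5:**
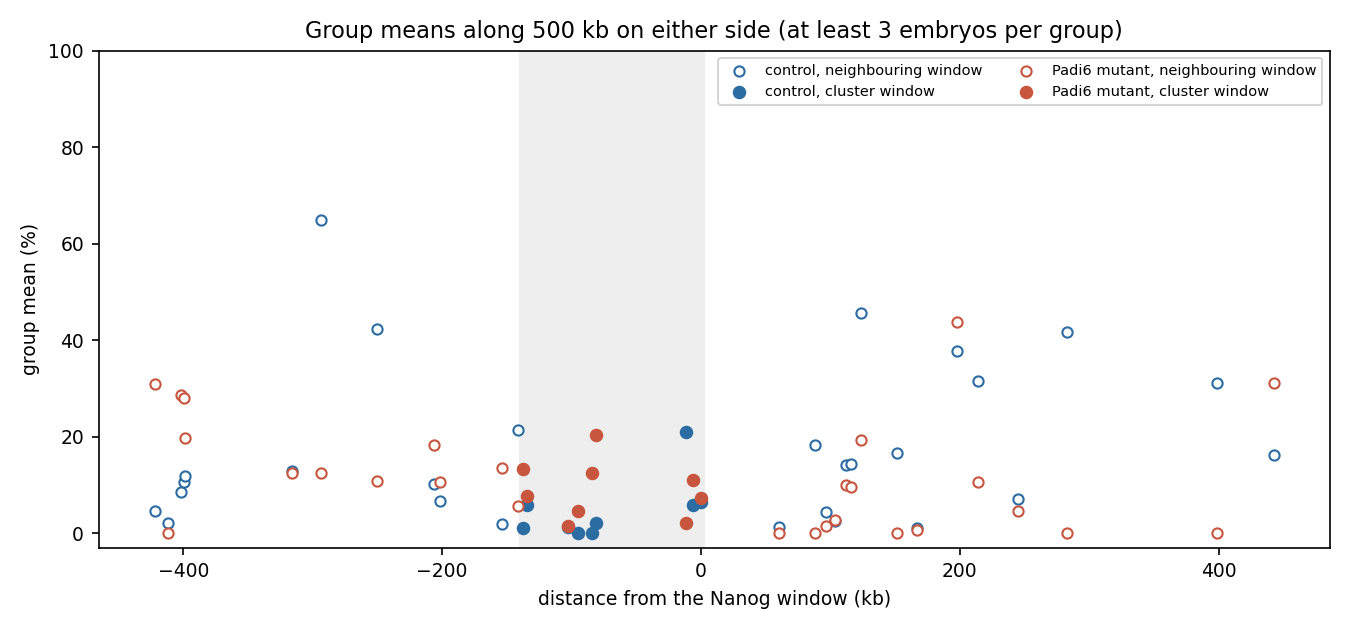
Mean level (%) of control (blue) and mutant (red) embryos at windows with at least 3 values per group, against the distance from the Nanog window in kb, within 500 kb on either side. Filled points in the grey band are the 9 cluster windows, of which 1 exceeds 20% in controls, as do 8 of the 27 neighbouring windows drawn.

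Among 78 candidate windows within 2 Mb, the 2 most like Nanog in level lay at the starts of Usp18 and Pex26 by the same spacing, with a mean absolute difference of 6.56 and 8.15 points over the 9 densely covered embryos. Among 81 candidates for Dppa3, they were a window at Rnu7 (2.54 points, 7 embryos) and the window from 124544253 to 124547752, tied to no gene (2.61 points, 7 embryos).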

How the data were processed

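The submitters' processing notes name Trim Galore 0.4.4, Bismark 0.18.2 and build GRCm39 (mm39). The authors deposited a single score per window and embryo, a methylation level in percent. No source used here gives how calls were combined, a coverage minimum or read counts, so no counting interval is possible. Of 54080 rows, 46 repeated another and were dropped. Of the values, 0.324% were whole numbers above 100, taken as percents without their decimal point and divided by 1000, and the cluster holds 0 of them.

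In the main fit, windows with 3 or more values in both groups were tested on the percent scale with limma 3.58.1 (R 4.3.3). Benjamini-Hochberg adjustment ran over all windows tested. The fits of densely or of sparsely covered embryos alone took windows with 2 or more values in both groups. The script was tested on simulated data. Exact permutation tests used scipy 1.17.1. The members, gene ties and lists were chosen with earlier results of these data known. All windows within the position rule are named. The lists of other inner cell mass, trophectoderm and primitive endoderm genes are not analysed here, since start sites were compared only within 2 Mb of the cluster.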

Additional observations from a re-analysis of the deposited data

Results flagged for a closer look

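Of 16 groups of values checked (each window and group with 4 to 10 embryos, and the cluster means), 7 held an embryo far from the others by Dixon's limit, whereas chance gives about 1 in 20. A group in which all values but a single one are exactly 0 reaches this limit by construction, and windows that overlap are not independent. The count of 7 can therefore not be read against 1 in 20. In the mutant group these were replicate 14 at the window from 122547353 (31.25%) and at Apobec1 (7.14%), and replicate 12 at Gm10420 (12.5%), each with all other mutant values at 0. Mutant replicate 15 stood apart at the window overlapping Dppa3 (50.0%), again with all other mutant values at 0, and in its cluster mean (33.3%). At Nanog it was mutant replicate 11 (35.7%). Among controls, replicate 10 stood apart at Dppa3 (12.5%).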

How the results depend on the processing

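No cluster window had an adjusted p under 0.05 in any of the limma refits that could test it, and the smallest was 0.290 (Gm10420, without control replicate 4). Over all windows the count of 14 became 3 with at least 7 embryos per group, 0 with at least 5, 56 in sparsely covered embryos alone, 1 on the arcsine scale, 0 with trend and robust fitting and 0 without values of exactly 0 and 100; the cause was not tested. With an embryo left out it was 0 to 18 (4 without control 3, 5 without control 4, 9, 0 and 6 without mutant 11, 12 and 14). No cluster window had 7 values in both groups, and sparsely covered embryos alone, at a minimum of 2 values per group, could test none. Of 102 window differences refitted in a way that could change the estimate, 87 kept their sign, 2 were 0 and 13 turned: on the arcsine scale (radians) -0.0253 at the window from 122547353, -0.00899 at Apobec1 and -0.00817 at Nanog, and the other 10 on leaving out an embryo, where these 3 windows ran from -5.85 to 4.56, from -1.22 to 0.963 and from -4.04 to 3.83 points. The difference of the cluster mean, 3.66 points, ran from 0.368 to 4.53 without single embryos, and was -6.26 over the 3 windows with at least 5 values per group, Gm10420 among them. It was 5.11 points over the 4 named promoters, chosen after seeing the data. No paired analysis was possible because the labels tie no control embryo to a mutant embryo.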
